A study of Schmidtea mediterranea with 15 samples.

Results

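Worms at 96 h after gamma irradiation were compared directly with worms at 24 h after the same exposure, to show which transcripts went on changing once the first day had passed. Both groups were whole adult planarians of Schmidtea mediterranea, a freshwater flatworm, from the clonal CIW4 line, starved before use and given 6000 rad, with 3 polyA RNA libraries at each time. The other 9 libraries of the 15 came from the same line at 48 h and 72 h after 6000 rad and from unirradiated worms at 0 h, 3 each. The features described are the transcript models with at least 1 RPKM (reads per kilobase of model, scaled to the library) in at least 3 of the 6 libraries of 96 h and 24 h, which held for 19722 of the 26671 models in the table (73.9%). The rule used the level only. The labels give no unirradiated worms at 96 h or 24 h, so elapsed time, food deprivation and radiation cannot be told apart. The labels do not state whether replicate libraries were made from different pools of animals; the p-values below therefore reflect the scatter among these libraries alone, which could be technical.

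Planarians renew all of their tissues from neoblasts, a population of dividing cells that ionising radiation kills, and worms left without them die after a period in which existing cells continue to differentiate, work and wear out. Cells already on the way to becoming epidermis or gut when the neoblasts are lost can finish maturing, so the transcripts of successive stages are known to disappear at different delays. The deposited table does not pair its model IDs with gene names. No cell type, pathway or function is therefore attached to any model here, the whole-worm label could not be checked against marker genes, and models are described by their level, length and course in time.

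The 96 h libraries held 17381483 to 30707808 reads and the 24 h libraries 16435841 to 24765138 reads, as recovered from the steps of the RPKM values. Of the 19722 models, 17614 reached 1 RPKM in all 6 libraries. A further 94 reached it in the 3 libraries of 96 h and in none of 24 h, and 89 in the 3 libraries of 24 h and in none of 96 h. Those 183 models entered through the time at which they were high. Of the first, 53 were called higher at 96 h, and of the second 57 were called lower. Over all models tested, 15.1% were called higher and 16.3% lower. The way these models entered favours calls in that direction, so the counts are no result about them. The third highest of the 6 values was 1.0002 RPKM in the member nearest the limit and 0.9997 RPKM in the nearest model left out. The typical spread between libraries of one time was small, with a median SD over models of 0.074 on the log2 scale at 96 h and 0.088 at 24 h.

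Many transcripts differed between the fourth day and the first, but most of them by little. At an adjusted p below 0.05 (limma fitted to log2(RPKM + 0.5), adjusted over the 21231 models tested in the 15 libraries), 3165 members were higher at 96 h than at 24 h and 3399 were lower. Over all models tested, 15.1% were called higher and 16.3% lower. Of the members' calls, 85.5% were changes of less than 1.5-fold, and the median absolute log2 change among called members was 0.32. The median change over all members was -0.0002 with a median SE of 0.09. Which direction had more calls depended on the scaling, since quantile normalization gave 3442 higher and 3057 lower members. At 1.5-fold or more, 491 members were called higher and 460 lower. These 2 counts are of members alone, and no share over all models tested stands beside them. Falls were the more numerous from 2-fold on. On this log2 scale, which understates the change of low models, a fall of at least 2-fold was called in 154 members, and over all models tested it was called in 160 (0.754%). A rise of that size was called in 94 members, and over all models tested in 97 (0.457%). A fall of at least 8-fold was called in 11 models, all of them members (0.0518% of all models tested), whereas the highest rise called was 1.90 on the log2 scale. All 3 values at 96 h lay above all 3 at 24 h in 24.1% of members and below them in 24.7%, against 22.9% and 23.7% of all models tested. The groups did not overlap in 94 of the 94 models with 2-fold rises and in 153 of the 154 with 2-fold falls. The same values chose these models, so their separation is no further evidence of a change. In whole worms, fewer cells of a type and less RNA per cell cannot be told apart.

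**Figure D1:**
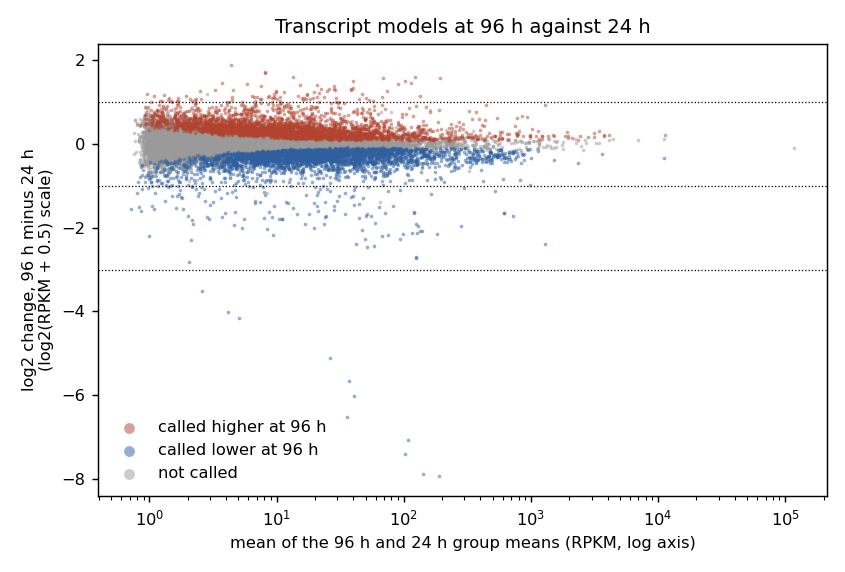
Log2 change of each of the 19722 transcript models (96 h minus 24 h, y axis) against its mean level in RPKM (x axis, log scale), coloured by the limma call at an adjusted p below 0.05. Dotted lines mark a 2-fold rise, a 2-fold fall and an 8-fold fall. The 11 models below the lowest line reach down to -7.92, and no model rises by more than 1.90.

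Within the 154 models with 2-fold falls, the 11 with falls of at least 8-fold were nearly gone at 96 h. Their mean levels lay between 12.6 and 862 RPKM at 0 h, 5.19 and 376 RPKM by 24 h, 0.332 and 21.2 RPKM by 48 h, 0.0217 and 1.93 RPKM by 72 h, and 0 and 1.11 RPKM by 96 h. Summed over the 11 models, they took 0.000504% to 0.000547% of the reads in the 96 h libraries and 0.0928% to 0.0943% in the 24 h libraries. The median log2 change was -6.02 between 24 h and 96 h. One of the 11 had 0 reads in all 3 libraries of 96 h and 34 to 61 reads in those of 24 h, so its mean level was at least 63.5-fold lower at 96 h, taking 3 reads over the 3 libraries as the limit that a count of 0 allows. With that model placed at its limit the median stayed -6.02. The mean RPKM dropped at every step through 24, 48, 72 and 96 h in 9 of the 11. At the last times a library held few reads of each model, with a median of 34 reads per model over the 3 libraries of 96 h together, and at such levels the added 0.5 RPKM leaves little room for a further change on the log2 scale.

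The largest fall belonged to SMED30014876, a model of 737 bases. It stood at 1.24, 0.921 and 1.01 RPKM in the 3 libraries of 96 h and at 372, 377 and 378 RPKM in those of 24 h. All 3 values at 96 h were far below all 3 at 24 h. The rule for named models admitted only groups without overlap. The log2 change was -7.92 (SE 0.10, limma adjusted p = 7.94e-17), and the mean RPKM was 356-fold lower at 96 h. The 96 h libraries held 13 to 28 of its reads each and the 24 h libraries 4603 to 6806. The libraries of the times between gave 24.2, 21.5 and 17.9 RPKM at 48 h and 2.07, 1.58 and 2.15 RPKM at 72 h, so the level dropped at every step. At 0 h it was 862 ± 11.6 RPKM (SD, n = 3), and the log2 change of 24 h against 0 h was -1.20, so a fall smaller on that scale had come before.

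The other 143 models with 2-fold falls dropped by less. Their median log2 change was -1.49, and their summed share of the reads (mean ± SD, n = 3) was 0.857% ± 0.0258 on the first day (24 h), then 0.617% ± 0.0173 by 48 h, 0.393% ± 0.00212 by 72 h and 0.256% ± 0.0036 by 96 h. The share at 0 h was 0.675% ± 0.00267, between those at 48 h and 24 h. In log2 terms a median of 25.2% of their change was present at 48 h, with quartiles of 19.9% and 38.9%, and 61.0% at 72 h, with quartiles of 55.0% and 72.5%. The mean level dropped at every step through 24, 48, 72 and 96 h in 130 of the 143 models. It did so in 1895 of the 3399 models called lower at any size, which include the 143. The change between 24 h and 96 h chose both sets, which makes such a course more likely. The values at 48 h and 72 h were not part of that change, but entered the estimate of its spread.

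Most of the 143 models were above their unirradiated level at 24 h. The median change was 0.43 on the log2 scale for 24 h against 0 h and -1.25 for 96 h against 0 h. The mean level at 24 h was above that at 0 h in 111 models and below it in 32. At 96 h it was above that at 0 h in 2 and below it in 141. These contrasts share libraries with each other and with the one that chose the models, and are given as levels only. In the 11 models with 8-fold falls the median change was -1.22 for 24 h against 0 h and -7.82 for 96 h against 0 h, and all 11 were below 0 h at both times.

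SMED30005838, a model of 270 bases, lost the most RPKM of any model that fell at least 1.5-fold and is 1 of these 143. It stood at 382, 429 and 422 RPKM in the 3 libraries of 96 h and at 2236, 2227 and 2039 RPKM in those of 24 h. The lack of overlap was required by the rule for named models. The log2 change was -2.40 (SE 0.05, limma adjusted p = 1.87e-14), and the mean RPKM was 5.27-fold lower at 96 h. Between these times it was 1455 ± 40.9 RPKM at 48 h and 710 ± 12.6 RPKM at 72 h (SD, n = 3). At 0 h it was 1285 ± 70.8 RPKM, so the level was above that of unirradiated worms at 24 h and below it at 96 h. Each 96 h library held 1994 to 3585 of its reads and each 24 h library 9086 to 14748.

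**Figure D2:**
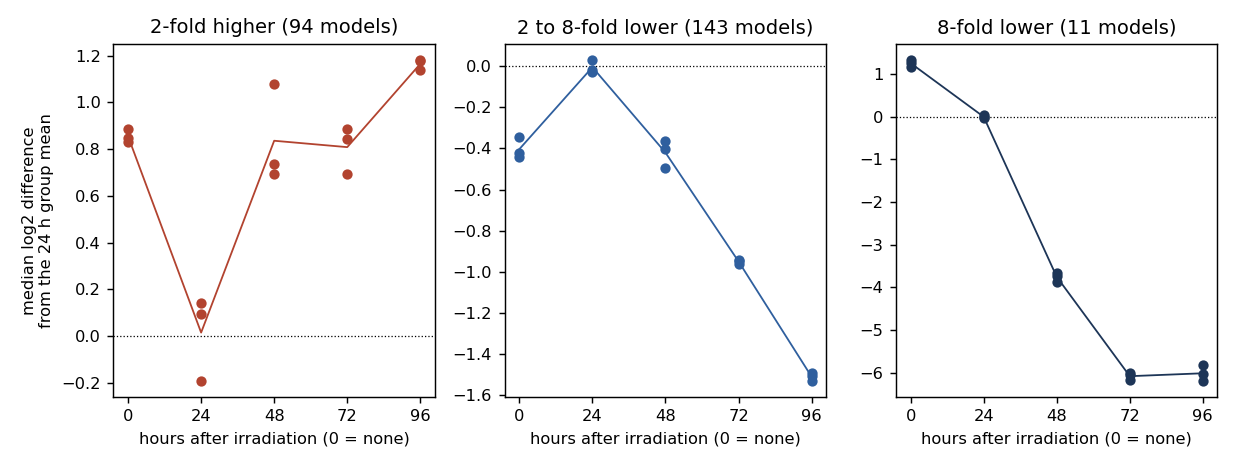
Median over models of the log2 difference from each model's 24 h mean (y axis, its own scale in each panel), one point per library and a line through the means of the 3 libraries, against hours after irradiation (0 for unirradiated worms). The 94 models with 2-fold rises lie above their 24 h mean in all libraries of 48 h and 72 h, with 1 library of 48 h far above the other 2, the 143 models with falls of 2 to 8-fold drop at each step from 24 h, and the 11 with 8-fold falls lie near -6 at 72 h and 96 h, where the 0.5 RPKM added to each value limits how far the scale can show a further drop.

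The 94 models with 2-fold rises lay below their unirradiated level at 24 h and, by a smaller margin, mostly above it at 96 h. Their median log2 change was 1.13 between 24 h and 96 h, while it was -0.84 for 24 h against 0 h and 0.37 for 96 h against 0 h, in contrasts that share libraries. All 94 had a mean at 24 h below that at 0 h, and 92 had a mean at 96 h above it. Summed over the 94, they took 0.638%, 0.653% and 0.634% of the reads in the 3 libraries of 96 h and 0.234%, 0.286% and 0.283% in those of 24 h. The share at 0 h was 0.478% to 0.493%. Replicate 1 of 24 h was the lowest of the 6, and without it 73 models reached a 2-fold rise, of which 62 were among the 94.

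Part of the rise was present by 48 h in all 3 libraries of that time. The median log2 difference of the 94 models from their 24 h mean was 0.69, 0.74 and 1.08 in the libraries of 48 h and 0.89, 0.69 and 0.84 in those of 72 h. Libraries of one time differed by more than the group means of 48 h and 72 h did, so whether the set went on rising between these times depended on single libraries. The 94 models took 0.424%, 0.428% and 0.574% of the reads in the 3 libraries of 48 h and 0.494%, 0.405% and 0.490% in those of 72 h, so 1 library of 48 h was above all 3 of 72 h and the other 2 overlapped with them. The mean level rose at every step through 24, 48, 72 and 96 h in 38 of the 94 models, a count that rests on the same libraries.

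SMED30010476, a model of 1727 bases, had the largest rise by the rule for named models. It stood at 9.87, 6.46 and 5.33 RPKM in the 3 libraries of 96 h and at 1.13, 1.51 and 1.96 RPKM in those of 24 h. That rule admitted only groups without overlap, and the values at 96 h were spread widely. The log2 change was 1.90 (SE 0.22, limma adjusted p = 8.51e-06). Each 96 h library held 161 to 524 of its reads and each 24 h library 33 to 64. The 3 libraries of 48 h gave 9.49, 7.63 and 5.22 RPKM and those of 72 h 6.79, 5.76 and 4.77 RPKM, which overlap with each other and with the values at 96 h. The level at 0 h was 5.13 ± 0.123 RPKM (SD, n = 3), and the difference between 96 h and 0 h did not pass the test (log2 change 0.41, SE 0.22, limma adjusted p = 0.14).

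SMED30005345, a model of 374 bases, gained the most RPKM of any model that rose at least 1.5-fold. It stood at 1694, 1666 and 1691 RPKM in the 3 libraries of 96 h and at 862, 888 and 915 RPKM in those of 24 h. The log2 change was 0.92 (SE 0.12, limma adjusted p = 2.86e-05), 1.89-fold in mean RPKM. The groups did not overlap, which the rule for named models required. The libraries of 48 h gave 1272, 1245 and 1844 RPKM and those of 72 h 1327, 1033 and 1366 RPKM, with 1 library of 48 h above every library of 72 h and 96 h. At 0 h the level was 1386 ± 19.2 RPKM (SD, n = 3), and the difference between 96 h and 0 h did not pass the test (log2 change 0.28, SE 0.12, limma adjusted p = 0.0706).

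**Figure D3:**
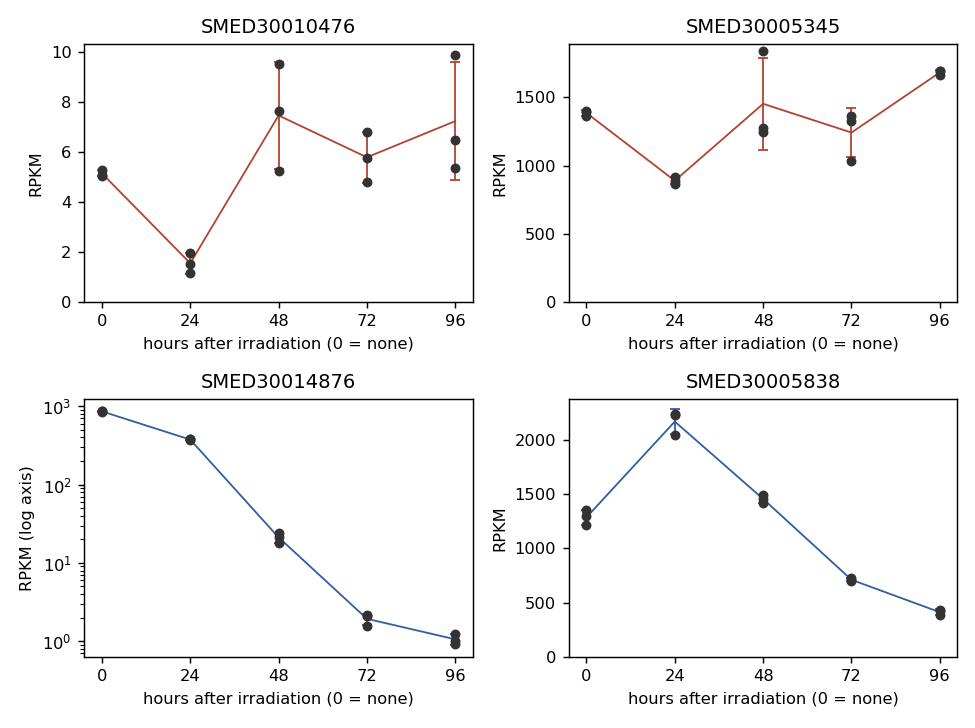
RPKM of the 4 named models in each of the 15 libraries (points), with the mean and SD of 3 libraries (line and bars), against hours after irradiation (0 for unirradiated worms); the y axis is logarithmic for SMED30014876 only. The upper 2 models dip at 24 h and exceed that level in every later library, and the lower 2 drop at each step from 24 h to 96 h.

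The 48 h and 72 h libraries were used to see whether the same direction held within the interval. They lie outside the contrast that chose the models, but entered its estimate of the spread. Of the 154 models with 2-fold falls by 96 h, 96 also passed the same limma test as lower between 48 h and 72 h and 1 as higher, where 1.4% of all models tested were called lower and 0.41% higher. The median change between 48 h and 72 h was -0.53 for the 154, with 148 of them below 0, against -0.003 over all members. The tests of the 2 contrasts share an estimate of the spread, so a model of low spread passes both more readily. With each contrast fitted to its own 6 libraries, 77 of 154 models were called lower and 0 higher, where 0.518% and 0.0377% of all models tested were.

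For the 94 models with 2-fold rises the direction between 48 h and 72 h was not settled by those libraries. Their median change was -0.02, with 42 above 0 and 52 below, and 1 was called higher and 0 lower. The median turned to 0.09 without replicate 3 of 48 h, with 70 of 94 above 0, and to 0.03 without replicate 2 of 72 h, with 59 above 0. With both of these libraries left out, a choice made after seeing the data, it was 0.15 and 85 were above 0. Without replicates 1 or 2 of 48 h it was -0.09 or -0.07, and without replicates 1 or 3 of 72 h it was -0.06 or -0.04. A call missed does not show that a model stayed level, since the median SE of these models was 0.145 for the 96 h and 24 h contrast, against 0.09 over all members. For SMED30005345 the change was -0.21 (SE 0.12, limma adjusted p = 0.501) and for SMED30010476 it was -0.32 (SE 0.22, limma adjusted p = 0.614). For SMED30005838 it was -1.03 (SE 0.05, limma adjusted p = 7.14e-09) and for SMED30014876 -3.15 (SE 0.10, limma adjusted p = 6.29e-11). Without limit on size, the 3399 models lower at 96 h had a median of -0.04 between 48 h and 72 h and the 3165 higher ones 0.02. The median of these 3165 models was 0.042 without replicate 3 of 48 h and 0.034 without replicate 2 of 72 h. It was 0.01 to 0.017 without any other single library of these times.

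**Figure D4:**
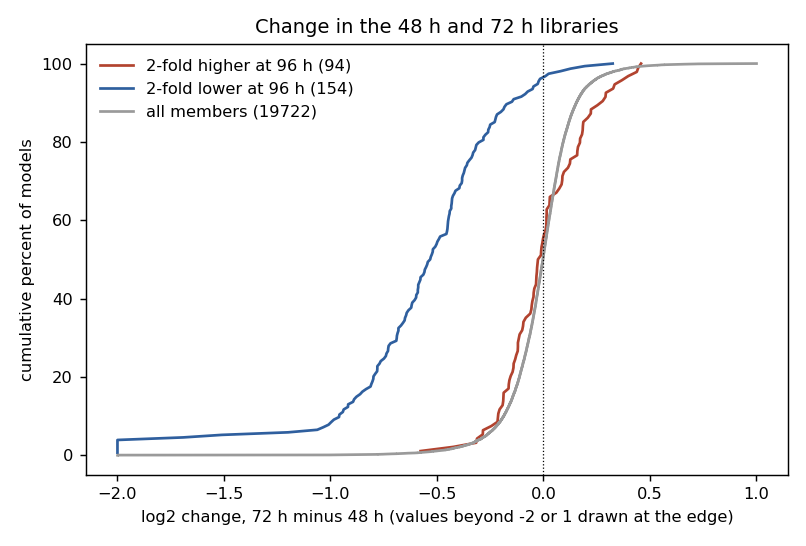
Cumulative percent of models (y axis) by their log2 change from 48 h to 72 h (x axis). The libraries of these times lie outside the contrast that chose the sets, but entered its estimate of the spread. The curve of the 154 models with 2-fold falls by 96 h lies left of that of all 19722 members, at a median of -0.53 against -0.003, and the curve of the 94 with 2-fold rises has its median at -0.02, which turns to 0.09 without replicate 3 of 48 h.

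Falls and rises differed in the length of the models. The median length was 1603.5 bases for the 94 models with 2-fold rises and 662.5 bases for the 154 with 2-fold falls, against 1181 bases over all members. When members were divided into 5 bins of like size by length, 6.53% of the shortest bin (60 to 564 bases) passed the test as higher at 96 h and 11.0% as lower. Of the longest bin (2169 to 23779 bases), 28.5% passed the test as higher and 14.9% as lower. The 2-fold calls in the shortest bin were 22 rises and 54 falls, and in the longest bin 39 rises and 6 falls. In the bins between, from shorter to longer, they were 10, 10 and 13 rises and 44, 26 and 24 falls. Rises of this size were thus most numerous in the longest bin and next in the shortest. Longer models have more reads and a smaller error, with a median SE of 0.063 in the longest bin and 0.186 in the shortest, which bears on the number of calls.

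The longest bin also took more of the reads at the later time. Its share was 33.2%, 33.5% and 33.05% in the 3 libraries of 96 h and 31.47%, 30.78% and 31.19% in those of 24 h, with no overlap (exact permutation test, two-sided p = 0.1, the smallest that 3 against 3 libraries allow). The shortest bin took 5.81% ± 0.035 in the 96 h libraries and 6.24% ± 0.0689 in the 24 h libraries (SD, n = 3 each). The unirradiated libraries gave 31.25%, 32.07% and 32.03% for the longest bin, of which 1 lay within the range of 24 h and the others between both times. For the shortest bin they gave 5.806%, 5.647% and 5.698%, of which 1 lay within the range of 96 h and the others below both times. The part of a length-related difference between libraries in the calls was not tested.

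Calls also differed with level. In the highest of 5 bins by mean RPKM (25.71 RPKM and above) 22.1% of models passed the test as higher at 96 h and 36.7% as lower, whereas in the lowest bin (0.7155 to 2.06 RPKM) 5.75% were called higher and 3.37% lower. In the bin next to the lowest (2.06 to 4.864 RPKM) these were 13.2% and 7.07%. The median SE was 0.045 in the highest bin, 0.13 in the bin next to the lowest and 0.194 in the lowest. The part of the error in the number of calls was not tested here either. Falls of at least 2-fold were likewise most numerous in the highest bin, at 61 of 154. Rises of that size were spread more evenly, at 24 of 94 in the highest bin and 13 in the lowest. The added 0.5 RPKM understates changes in the lowest bins, which bears on these 2-fold counts. With 0.1 RPKM added instead, 200 falls and 133 rises of at least 2-fold were called among members.

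**Figure D5:**
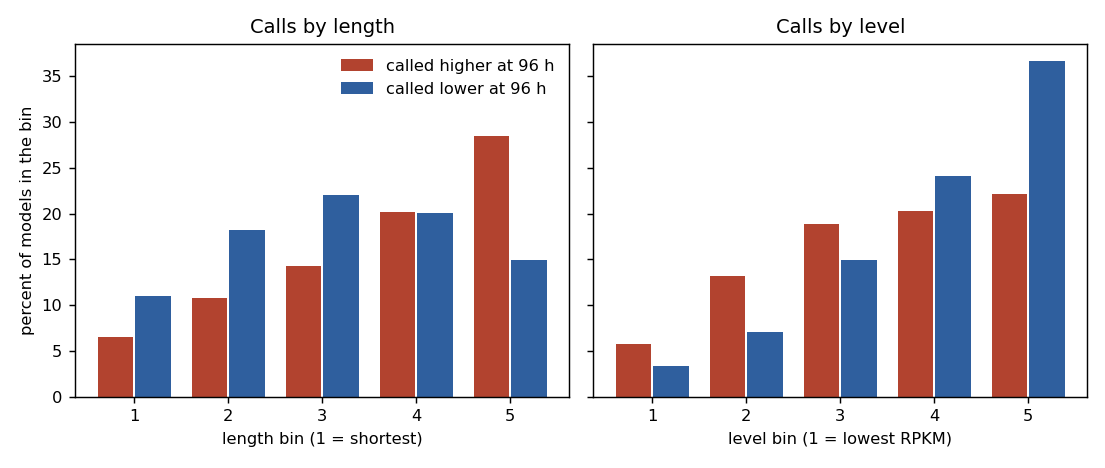
Percent of models called higher (red) or lower (blue) at 96 h than at 24 h by limma, in 5 bins of the members by length (left) and by mean RPKM (right). Higher calls outnumber lower ones among the longest models, at 28.5% against 14.9%, and lower calls outnumber higher ones among the most abundant, at 36.7% against 22.1%.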

How the data were processed

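RPKM values for 26671 transcript models in 15 libraries were deposited by the authors. CASAVA 1.8.2, Bowtie and edgeR are named as tools, per the submitters' processing notes; their roles are not stated there, and nothing used here names the transcript set or the use of strand, so reads of near-identical or overlapping models may be shared. Each RPKM value is a read number times a constant of its model and library. Whole reads, lengths (60 to 23779 bases) and library divisors were worked out from these constants for 100% of models, within 0.001 reads. The divisors were 0.974 to 1.027 times the reads and equalled trimmed-mean (TMM) factors computed here from the reads to 4 decimals in 15 of 15 libraries, so the deposited RPKM carry that scaling. Depth ranged from 9749391 to 30707808 reads.

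Values were transformed as log2(RPKM + 0.5), so changes of low models are understated. The fit held the 21231 models that reached 1 RPKM in 3 or more of the 15 libraries, and was made in limma 3.58.1 (R 4.3.3) with a mean per time and variances that follow a trend with level; contrasts were two-sided with Benjamini-Hochberg adjustment over all 21231. Named models are, in each direction, the largest log2 change and the largest RPKM difference at 1.5-fold or more, among called members whose groups do not overlap and whose higher mean reaches 5 RPKM. Members, sets and rules were chosen with earlier results of these data known. Other pseudocounts, filters, scalings, fits and left-out libraries were tried. The fits and the recovery were tested on simulated data. Figures used matplotlib 3.10.9; tables used Python 3.11.15, numpy 2.4.6, pandas 2.3.3 and scipy 1.17.1.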

Additional observations from a re-analysis of the deposited data

How the results depend on the processing

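The 3165 called rises and 3399 called falls between 24 h and 96 h stayed within 1.5 times under all alternatives run, at 2949 to 3621 and 3057 to 3759. Their balance did not hold under all: quantile normalization gave 3442 rises and 3057 falls. The 4 named models kept their direction and their calls under each of these and when any of the 12 libraries of 24 to 96 h was left out, with limma adjusted p of at most 0.000239. The count of 94 rises of at least 2-fold was 158 with limma-voom on recovered reads, the only alternative that moved a count by more than 1.5 times, and 66 with a pseudocount of 1 RPKM; the cause was not tested. The 154 falls of that size ranged from 130 to 210 and the 11 of 8-fold from 10 to 16. Leaving out single libraries gave 2491 to 3214 higher and 2812 to 3446 lower models, and 73 to 114 rises and 154 to 163 falls of at least 2-fold. Correlations of deviations between libraries of 96 h and 24 h were -0.004 to 0.014 for equal replicate numbers and -0.017 to 0.004 for unequal ones. Such values cannot show that the libraries were unpaired. With the replicate number as a block the counts were 3110 and 3359, with 94 and 154 of at least 2-fold. The 96 models that fell both by 96 h and between 48 h and 72 h became 77 to 111. The median change from 48 h to 72 h of the 2-fold rises, -0.019, ran from -0.085 to 0.093 with single libraries left out, turning above 0 without replicate 3 of 48 h or replicate 2 of 72 h; that of the 2-fold falls ran from -0.562 to -0.512. For falls to a few reads at 96 h, depth limits the size that can be stated.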

Other observations

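On the second principal component of the members' log2 values over all 15 libraries, which held 17.5% of the variance, the libraries of 96 h lay at 14.6, 15.95 and 15.63 and those of 24 h at -26.6, -24.16 and -25.33. The unirradiated libraries, at 9.54 to 12.68, lay closer to those of 96 h on this axis, although on the first component (41.8%) they stood apart at -41.72 to -40.64, with 96 h at 19.19 to 20.35 and 24 h at -6.29 to -5.66. Libraries of the times between were not alike on the second component. Replicate 3 of 48 h lay at 2.15 and the other two at -5.98 and -6.8, and replicate 2 of 72 h lay at -2.07 and the other two at 4.29 and 4.48. The same 2 libraries held the highest and the lowest share of reads of the 94 rising models at their times. They were also the highest and the lowest in the share of the longest length bin. That share was 32.95% in replicate 3 of 48 h and 32.06% and 31.62% in the others of 48 h. It was 30.93% in replicate 2 of 72 h and 32.72% and 31.94% in the others of 72 h. The part of length in the rises was not tested.

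Of the 1509 models tested that are not members, 84 (5.57%) were called between 96 h and 24 h. Within the 154 models with 2-fold falls, 1 pair had RPKM values within 5% of each other in all 15 libraries, and none of the 94 rising models did; whether such models share reads was not tested.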
